A study of Mus musculus with 8 samples.

Results

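The brush border hydrolases described here were 4 disaccharidase genes, Sis, Lct, Mgam and Treh, and 3 alkaline phosphatase genes, Alpi, Akp3 and Alpl. They were chosen by name, and 6 of the 7 had an entry among the 14202 genes with a value. Alpl was listed in none of the 8 samples. The samples were mouse intestinal crypt organoids, that is, epithelial cultures expanded from isolated crypts in Matrigel and IntestiCult medium with regular passage. By the labels there were 4 WT and 4 MG53-TG samples. MG53 is a TRIM family protein encoded by Trim72, which MG53-TG mice overexpress globally, and their controls in the study were wild type littermates. The study also speaks of MG53;Lgr5 and Lgr5 mice for its crypt organoid transcriptome, so whether both groups carried a knock-in allele at Lgr5 is not settled by the sources used here. Neither the promoter of the transgene nor the age of the mice was given for these cultures, and the labels name no treatment. The labels do not say whether the 4 samples of a genotype came from different animals, so p-values measure the spread between samples, which may be technical.

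Enterocytes carry these enzymes on their microvilli. The disaccharidases split dietary sugars into monosaccharides that transporters then take up, and the alkaline phosphatases, held by a GPI anchor, remove phosphate groups from substrates such as bacterial lipopolysaccharide. Disaccharidase transcripts are scarce in crypts and accumulate as cells move onto the villus, and lactase in rodents is also known for its decline at weaning.

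Levels are in FPKM, which scales the fragments of a transcript to its length and to the mapped fragments of the library, so genes can be compared per length. The depth of the libraries is unknown. Trim72 had no entry in the WT samples and stood in MG53-TG samples 1 to 4 at 16.4, 27.4, 31.9 and 36.5 FPKM. Over transcript events above 1 FPKM in both samples, MG53-TG samples 1 and 2 correlated at r = 0.944 and samples 3 and 4 at 0.942. The correlation between those pairs was only 0.906 to 0.916, against 0.937 to 0.945 among the WT samples. No label names a batch, and the log2 fold change of each member is therefore also given for either MG53-TG pair alone, a choice made once the data had been seen.

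The genes lie at different loci of GRCm38, except for the intestinal phosphatases. Sis spans chr3:72888557-72967863 on the minus strand, Lct chr1:128284756-128328318 on the minus strand, Mgam chr6:40628831-40769123 on the plus strand and Treh chr9:44673233-44686305 on the plus strand. Alpi (chr1:87098002-87101606, minus strand) and Akp3 (chr1:87124973-87127912, plus strand) are neighbours that point away from each other, with 23.4 kb between them. Their coding sequences were identical at 82.6% of 1645 aligned bases, with a longest identical run of 68 bases. How reads that match both were assigned is not given in the sources used here, so the split between them carries this uncertainty. Alpl lies apart on chr4:137741733-137796384, and its coding sequence shared 67.6% of aligned bases with that of Alpi.

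The promoters of the 6 listed genes are shown because factors of the CDX, HNF4 and GATA families are known to act on brush border genes, and because Alpi and Akp3 moved in opposite directions. Each window holds 300 bases from RefSeq (GRCm38.p6), 250 before and 50 after the start of the gene, 5′ to 3′ on the strand of the gene. The capitals mark matches, on either strand, to 3 strings of letters. The CDX family was searched as TTTATG. The GATA family was searched as AGATAA. The HNF4 half-site was searched as CAAAGTC. These letters were chosen after the sequences had been seen, and no matches overlapped.
Sis: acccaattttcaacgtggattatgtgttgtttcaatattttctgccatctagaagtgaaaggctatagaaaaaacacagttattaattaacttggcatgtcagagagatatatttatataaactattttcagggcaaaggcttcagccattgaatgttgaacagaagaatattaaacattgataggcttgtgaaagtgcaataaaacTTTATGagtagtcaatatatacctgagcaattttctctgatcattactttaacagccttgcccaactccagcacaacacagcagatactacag
Lct: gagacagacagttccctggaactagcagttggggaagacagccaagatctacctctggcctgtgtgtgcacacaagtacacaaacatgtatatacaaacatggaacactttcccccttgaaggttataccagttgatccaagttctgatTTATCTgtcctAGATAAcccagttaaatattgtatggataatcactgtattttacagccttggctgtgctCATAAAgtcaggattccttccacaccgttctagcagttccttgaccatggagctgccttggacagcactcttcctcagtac
Mgam: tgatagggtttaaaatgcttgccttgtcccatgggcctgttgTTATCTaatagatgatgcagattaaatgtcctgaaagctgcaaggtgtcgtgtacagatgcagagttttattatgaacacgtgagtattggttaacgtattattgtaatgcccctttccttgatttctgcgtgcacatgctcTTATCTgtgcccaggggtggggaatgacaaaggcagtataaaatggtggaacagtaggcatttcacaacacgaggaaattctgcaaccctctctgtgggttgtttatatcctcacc
Treh: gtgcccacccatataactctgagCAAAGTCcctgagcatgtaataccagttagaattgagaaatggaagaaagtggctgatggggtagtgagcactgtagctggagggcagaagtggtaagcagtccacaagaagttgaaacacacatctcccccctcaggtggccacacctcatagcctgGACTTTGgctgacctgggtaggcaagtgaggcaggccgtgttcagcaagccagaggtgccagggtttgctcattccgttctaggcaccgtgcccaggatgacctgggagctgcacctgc
Alpi: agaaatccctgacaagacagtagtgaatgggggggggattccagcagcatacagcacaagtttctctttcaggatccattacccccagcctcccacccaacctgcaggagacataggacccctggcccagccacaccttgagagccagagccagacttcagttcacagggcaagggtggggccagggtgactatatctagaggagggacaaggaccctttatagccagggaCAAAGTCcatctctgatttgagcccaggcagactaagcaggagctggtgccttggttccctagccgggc
Akp3: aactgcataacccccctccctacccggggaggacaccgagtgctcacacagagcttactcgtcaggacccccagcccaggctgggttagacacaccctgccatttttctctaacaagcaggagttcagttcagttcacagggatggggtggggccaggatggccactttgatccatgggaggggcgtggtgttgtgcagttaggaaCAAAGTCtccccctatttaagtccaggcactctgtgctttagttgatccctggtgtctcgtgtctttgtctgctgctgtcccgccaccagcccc

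The windows were chr3:72967814-72968113 for Sis, chr1:128328269-128328568 for Lct, chr6:40628581-40628880 for Mgam, chr9:44672983-44673282 for Treh, chr1:87101557-87101856 for Alpi and chr1:87124704-87125003 for Akp3. The deposited start nearest to the RefSeq start was at the same base for Lct, Mgam, Treh and Alpi, 3 bases downstream for Sis and 19 bases downstream for Akp3. For Mgam this start carried only 0.794 ± 0.960 FPKM in WT and 35.1 ± 27.6 FPKM in MG53-TG (SD, n = 4 each). A start 14.1 kb downstream, outside the window, carried 30.1 ± 16.0 and 31.0 ± 37.4 FPKM. The Sis window held 1 CDX match, and the Lct window 1 CDX and 2 GATA matches. Mgam had 2 GATA matches and Treh 2 HNF4 matches. Alpi and Akp3 each had 1 match, to the same CAAAGTC letters, beginning 19 and 44 bases before the start. Among all 32851 promoter windows of this length, 11.9% held the CDX letters, 11.2% the GATA letters and 4.44% the HNF4 letters. The Alpi and Akp3 windows were identical at 66.7% of 267 aligned bases, and those of Sis and Lct, which are unrelated by position, at 61.1% of 265. A match is a string of letters and no evidence of binding.

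Of the 6 listed members, 5 were higher and 1 was lower in MG53-TG than in WT at a limma adjusted p of at most 0.05. In this comparison 44.5% of the 10989 genes tested passed that threshold, 15.6% as higher and 28.8% as lower. In all 6 the lowest sample of one genotype lay above the highest of the other, as it did for 15.7% of all genes in the higher and 28.8% in the lower direction. For each of them the two-sided exact permutation test gave p = 0.0286, the smallest that 70 relabellings of 4 against 4 samples allow. Increases of at least 2 on the log2(FPKM + 1) scale were found for Sis, Lct, Treh and Alpi and for 1.88% of all genes tested. With MG53-TG samples 1 and 2 alone, or 3 and 4 alone, 4 members were higher, Akp3 was lower and Mgam did not pass, while 35.3% and 54.2% of all genes were called.

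**Figure D1:**
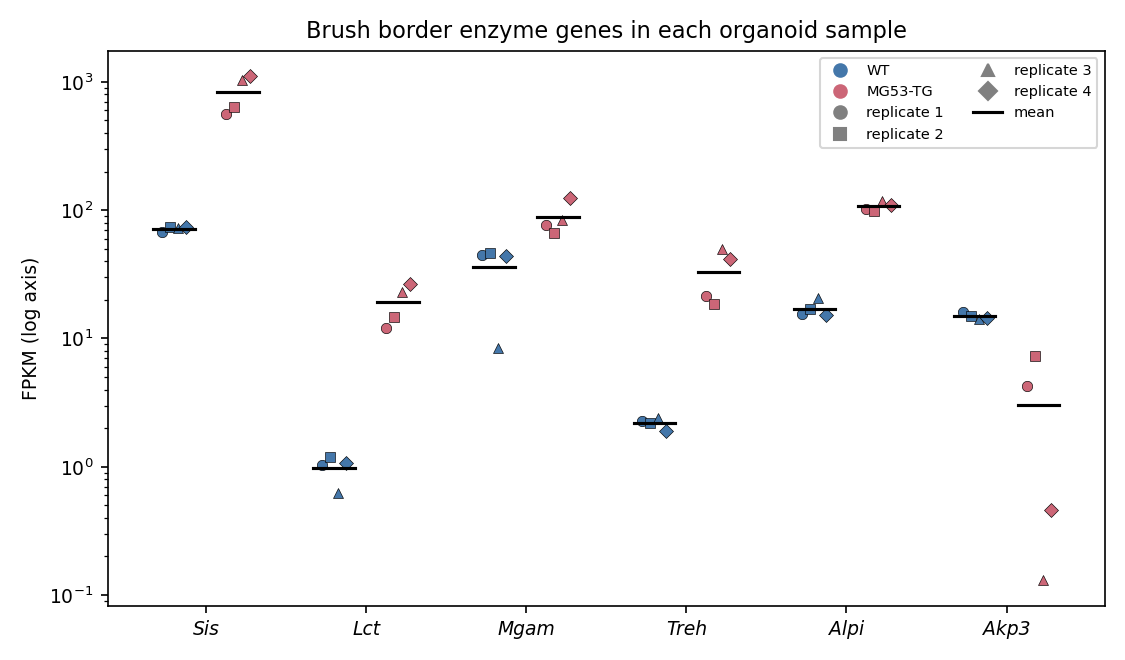
FPKM of the 6 listed members on a log axis, with WT in blue, MG53-TG in red, a symbol for each replicate number and a bar at the mean of 4 samples. Sis, Lct, Treh and Alpi stand far above WT in all 4 MG53-TG samples, and Akp3 lies below WT with a wide spread, from 7.27 down to 0.130.

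Sis encodes sucrase-isomaltase, which splits sucrose and the branch points of starch fragments. Its level in WT samples 1 to 4 was 67.5, 73.7, 72.0 and 74.5 FPKM. The MG53-TG samples had 561, 631, 1033 and 1111 FPKM. The WT samples were nearly alike, and the lowest MG53-TG sample was 7.54 times the highest WT sample. The means were 71.9 ± 3.10 and 834 ± 278 FPKM (SD, n = 4 each), a ratio of 11.6. By its summed ends, Sis moved from rank 653 to rank 29 of the 10989 genes by mean level. On that measure it was the most abundant member in both genotypes. Its only start carried less, at 40.2 ± 2.36 and 440 ± 139 FPKM (SD, n = 4 each). By starts the WT mean of Sis stayed above that of Mgam (36.0 FPKM), but Mgam was higher in WT samples 1, 2 and 4. With the highest single event of each gene, Mgam was above Sis in WT samples 1 to 3 and below it in sample 4. Mgam was at 66.1, 62.5, 58.6 and 52.9 FPKM and Sis at 52.0, 57.7, 55.0 and 57.0 FPKM. The change of Sis on the log2(FPKM + 1) scale was 3.46 (SE 0.22, 95% interval 2.97 to 3.94, limma adjusted p = 9.02e-06). It was 3.03 with MG53-TG samples 1 and 2 alone and 3.88 with samples 3 and 4 alone.

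Sis transcripts ended at 2 places. The end of the full gene, in the last of 48 annotated exons (chr3:72888557-72889058), carried 52.0, 57.7, 55.0 and 57.0 FPKM in WT and 400, 448, 739 and 786 FPKM in MG53-TG. The other (chr3:72965092-72965685) is exon 3 of the annotated retained-intron transcript Sis-203 and carried 16.5 ± 0.917 and 241 ± 80.8 FPKM (SD, n = 4). Both ends therefore rose. The share of the full end was 77.0% ± 0.880 in WT and 71.1% ± 0.362 in MG53-TG (SD, n = 4). These shares did not overlap between genotypes (exact permutation p = 0.0286). The adjusted p was 0.0857 over the 3 shares compared, and a single smallest p among 3 cannot fall below that value with 4 samples a group.

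Lct encodes lactase-phlorizin hydrolase, which splits lactose. It was the least abundant member in WT, at 1.04, 1.20, 0.621 and 1.07 FPKM. MG53-TG samples 1 to 4 had 12.1, 14.6, 23.0 and 26.8 FPKM. The lowest MG53-TG sample was about 10 times the highest WT sample. Means of 0.983 ± 0.252 and 19.1 ± 6.93 FPKM (SD, n = 4 each) gave a ratio of 19.4, the highest among the members. On the log2(FPKM + 1) scale, which understates changes of scarce transcripts, the difference was 3.29 (SE 0.24, limma adjusted p = 2.33e-05), and with a pseudocount of 0.1 it was 4.11. All Lct fragments were attributed to a single start and a single end, which are exon 1 and exon 17 of the annotated transcript Lct-201. Samples 1 and 2 of MG53-TG alone gave 2.86 and samples 3 and 4 gave 3.71.

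Treh encodes trehalase, which splits trehalose, a sugar of fungi and insects. Its WT levels were 2.28, 2.21, 2.40 and 1.89 FPKM. In MG53-TG the levels were 21.4, 18.7, 49.6 and 41.5 FPKM, so that samples 3 and 4 stood above samples 1 and 2. The mean went from 2.20 ± 0.217 to 32.8 ± 15.1 FPKM (SD, n = 4 each), a ratio of 14.9. This was a log2 difference of 3.29 (SE 0.29, limma adjusted p = 5.78e-05), with 2.72 for MG53-TG samples 1 and 2 alone and 3.86 for samples 3 and 4 alone. The last exon of Treh shares its final 2 bases with Phldb1 on the opposite strand, which stood at 1.77 to 2.59 FPKM in WT and 3.61 to 6.50 FPKM in MG53-TG.

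Within Treh, a 218-base exon (chr9:44684508-44684725) was included in 100% of the measured FPKM in all WT samples. Its inclusion was 93.2%, 93.6%, 92.7% and 94.4% in MG53-TG. Transcripts that skip this exon had no entry in WT, whereas the MG53-TG samples held 1.46, 1.20, 3.62 and 2.33 FPKM of them. The lowest level at which such a form can be listed is not known. A 101-base exon (chr9:44682632-44682732) was included at 93.3% ± 6.33 in WT and 97.7% ± 1.41 in MG53-TG (SD, n = 4 each), with overlapping samples. The form without it was listed in WT samples 1, 2 and 4, at 0.347, 0.110 and 0.127 FPKM.

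Mgam encodes maltase-glucoamylase, which releases glucose from the ends of starch fragments. Summed over its starts, it was at 44.9, 46.5, 8.50 and 44.2 FPKM in WT and at 77.0, 66.4, 84.3 and 124 FPKM in MG53-TG. WT sample 3 was far below the other WT samples. The means were 36.0 ± 18.4 and 88.0 ± 25.3 FPKM (SD, n = 4 each), a ratio of 2.44. The log2 fold change of 1.48 (SE 0.50, 95% interval 0.34 to 2.62, limma adjusted p = 0.0406) just passed the threshold. Without WT sample 3 it fell to 0.91, with an adjusted p of 0.0110.

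Read from its interior, Mgam did not pass the test. Its highest single event, a group of exons spliced in together between chr6:40680111-40703497, was at 66.1, 62.5, 58.6 and 52.9 FPKM in WT. The same event was at 52.2, 66.8, 76.5 and 73.6 FPKM in MG53-TG. The genotypes overlapped, and their log2 difference of 0.15 did not pass (limma adjusted p = 0.386). Taking the highest event of each sample separately, an alternative added after seeing the data, gave 63.8 ± 4.04 and 73.0 ± 6.94 FPKM (SD, n = 4 each) and a difference of 0.19 (exact permutation p = 0.0571). Transcripts through the middle of Mgam were thus present in WT sample 3 at a level near that of the other WT samples, although its listed starts summed to 8.50 FPKM. Exon 2 gave a like picture when its 4 forms, which share a first base and differ in their last, were summed after the data had been seen. That sum was 66.5, 63.0, 58.6 and 78.2 FPKM in WT. In MG53-TG it was 57.9, 72.3 and 85.0 FPKM in samples 1, 2 and 4 and highest in sample 3. The means were 66.6 ± 8.41 and 77.6 ± 16.1 FPKM (SD, n = 4 each), and the genotypes overlapped. In WT sample 3 the longest form (chr6:40642979-40643220) held 44.7 FPKM and the annotated form 6.99 FPKM. The form ending at base 40643154 was at 6.26 to 11.6 FPKM in the 4 WT samples and had no entry in MG53-TG.

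The starts used by Mgam differed between samples. The annotated first exon (chr6:40628831-40628995) carried 0.50, 0.475, 0.00680 and 2.19 FPKM in WT. In MG53-TG it carried 52.2, 64.2, 6.12 and 17.8 FPKM, with no overlap between the genotypes. A start at annotated exon 2 (chr6:40642979-40643102), 14.1 kb downstream, carried 33.8, 44.1, 6.98 and 35.4 FPKM in WT. In MG53-TG this start was nearly empty in samples 1 and 2, at 0.194 and 0.676 FPKM, and high in samples 3 and 4, at 76.5 and 46.7 FPKM. Its share of all starts was 83.1% ± 8.33 in WT and 32.4% ± 42.7 in MG53-TG (SD, n = 4), a difference that was not past the threshold (exact permutation p = 0.114, adjusted p = 0.171). One more start (chr6:40671894-40671950), exon 1 of the transcript Mgam-207 but also exon 20 of Mgam-201 and Mgam-202, was at 0.723 to 1.58 FPKM in WT. MG53-TG samples 1 and 4 had 18.3 and 59.4 FPKM from it, against 1.21 and 1.26 FPKM in samples 2 and 3. A start at chr6:40634783-40634892, joined to Mgam by the identifier alone and sharing no annotated exon boundary, held 9.53 and 4.69 FPKM in WT samples 1 and 4 and 5.72 FPKM in MG53-TG sample 1, and was listed in no other sample. Assigning a fragment to a start requires a reconstructed transcript, and whether these shifts reflect promoter use or reconstruction was not tested. A pseudogene, Mgam2-ps, begins 9.6 kb after Mgam and was at 3.34 to 3.63 FPKM in WT and 2.18 to 9.35 FPKM in MG53-TG.

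**Figure D2:**
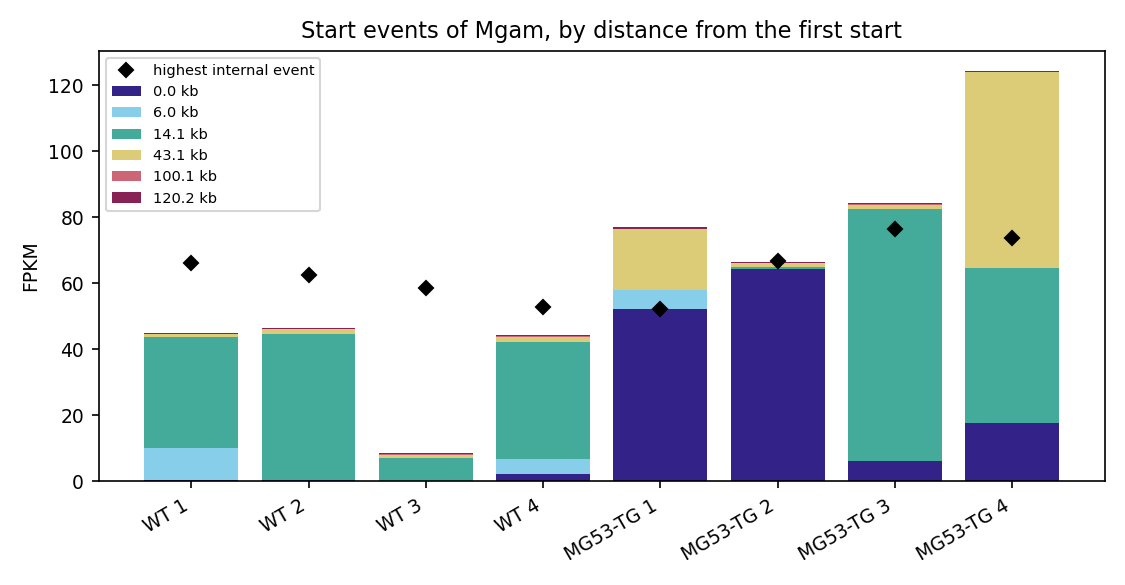
FPKM of each Mgam start event, stacked by sample and coloured by distance from the first start in kb, with the highest internal event as a black diamond. The stacked starts of WT 3 sum to 8.50 FPKM while its internal event is at 58.6 FPKM, and the first start (dark blue) is large in MG53-TG 1 and 2.

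Among the disaccharidases, Mgam rose least and the log2 fold changes of the others lay close together. The difference in log2 fold change was 0.17 ± 0.10 (SE) between Sis and Lct, 0.17 ± 0.15 between Sis and Treh and 0.00 ± 0.20 between Lct and Treh. These are small against the changes themselves. With a pseudocount of 0.1 they turned to -0.64, -0.25 and 0.39, so that Lct rose more than Treh and Treh more than Sis. Mgam lagged Sis by 1.98 ± 0.59, Lct by 1.81 ± 0.50 and Treh by 1.81 ± 0.65. The exact permutation tests gave p = 0.0571, 0.0571 and 0.114 for these 3 ratios. All 3 rest on the summed starts of Mgam, which include WT sample 3 at 8.50 FPKM. Without that sample Mgam lagged Sis by 2.55 and Lct by 2.29, and its ratio to Treh changed by -2.41. With the highest single event Mgam changed by 0.15 and Sis by 3.34. No pair of the 7 compared passed after adjustment, since a single p of 0.0286 among 7 cannot fall below the threshold.

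Alpi encodes the intestinal alkaline phosphatase found along the gut. Its WT levels were 15.4, 17.0, 20.7 and 15.3 FPKM, and its MG53-TG levels 102, 97.9, 118 and 110 FPKM. No other member was as even within MG53-TG, where the coefficient of variation was 8.33%. Mean levels were 17.1 ± 2.50 and 107 ± 8.91 FPKM (SD, n = 4 each) and their ratio was 6.26. On the log2 scale Alpi changed by 2.58 (SE 0.12, 95% interval 2.32 to 2.85, limma adjusted p = 1.51e-06), and each MG53-TG pair alone gave 2.49 and 2.68. Events with a retained intron were listed only in MG53-TG sample 3, at 14.1 FPKM.

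Akp3 encodes the second intestinal alkaline phosphatase of the mouse, known from the duodenum. It was at 16.2, 14.9, 14.2 and 14.4 FPKM in WT, close to Alpi. In MG53-TG it was at 4.24, 7.27, 0.130 and 0.461 FPKM. The highest MG53-TG sample was below the lowest WT sample, which was 1.95 times as high. MG53-TG samples 1 and 2 kept part of the transcript, and samples 3 and 4 had almost none. The mean fell from 14.9 ± 0.918 to 3.03 ± 3.39 FPKM (SD, n = 4 each), so that WT was 4.93 times as high. On the log2 scale Akp3 changed by -2.45 (SE 0.58, 95% interval -3.78 to -1.12, limma adjusted p = 0.00959). With a pseudocount of 0.1 it was -3.40 (SE 1.00, adjusted p = 0.0245), as 2 samples lay below 1 FPKM. It was -1.27 with MG53-TG samples 1 and 2 alone and -3.63 with samples 3 and 4 alone. A decrease of at least 2 past the threshold was seen for 1.06% of all genes tested.

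The Akp3 transcript began at chr1:87124973-87125074 or, as in the annotated retained-intron form, ran on to chr1:87125274. The first start held 86.5% ± 9.08 of the start FPKM in WT and 88.3% ± 14.4 in MG53-TG (SD, n = 4), with an exact permutation p of 0.829 that does not show the shares to be equal. The deposited end extends 804 bases past the annotated end of the gene.

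Together the 2 intestinal phosphatases rose from 32.0 ± 2.11 to 110 ± 5.88 FPKM (SD, n = 4 each). Akp3 made up 51.3%, 46.7%, 40.7% and 48.5% of their sum in WT. In MG53-TG it made up 3.99%, 6.92%, 0.110% and 0.417%. The pair was thus shared nearly evenly in WT and was almost wholly Alpi in MG53-TG. The log2 ratio of Alpi to Akp3 was 0.18 ± 0.25 in WT and 5.21 ± 1.51 in MG53-TG (SD, n = 4), a difference of 5.03 (exact permutation p = 0.0286, adjusted p = 0.133 over 7 pairs). Another gene of this cluster, Alppl2, was at or below 1.24 FPKM in every sample.

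**Figure D3:**
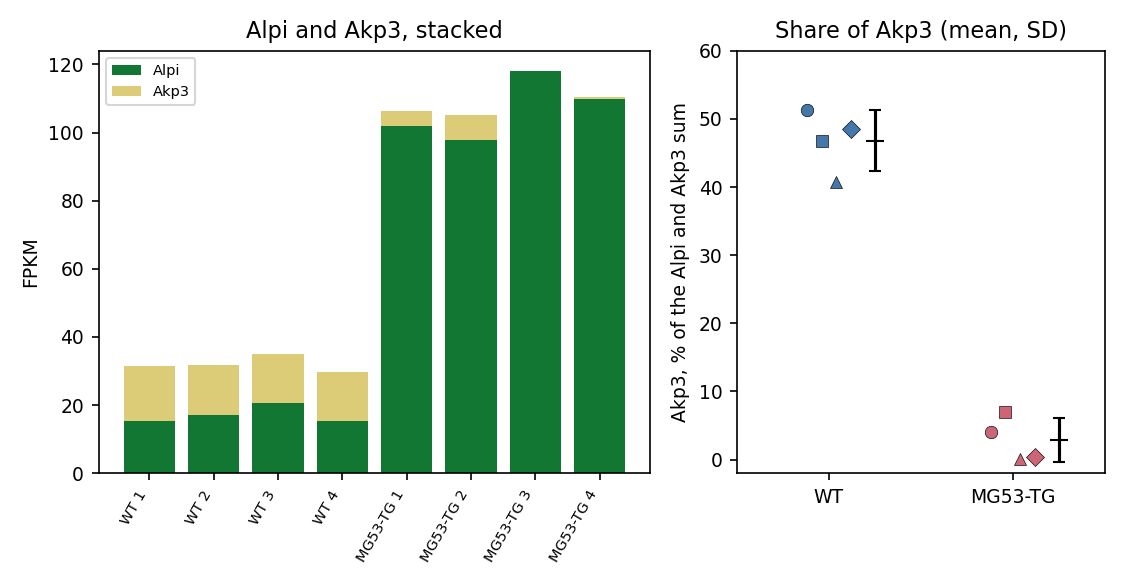
Left, FPKM of Alpi (green) and Akp3 (yellow) stacked for each sample. Right, Akp3 as a percentage of their sum, with a symbol for each replicate and the mean and SD of 4 samples, falling from 46.8% in WT to 2.86% in MG53-TG.

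By mean of the summed starts or ends, the order of the members in WT was Sis, Mgam, Alpi, Akp3, Treh and Lct. Mgam and Alpi overlapped in their sample ranges, as did Alpi and Akp3. In MG53-TG the order was Sis, Alpi, Mgam, Treh, Lct and Akp3, where Alpi and Mgam overlapped, as did Treh and Lct. Akp3 moved from the fourth place to the last, and Lct from the last to the fifth.

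**Figure D4:**
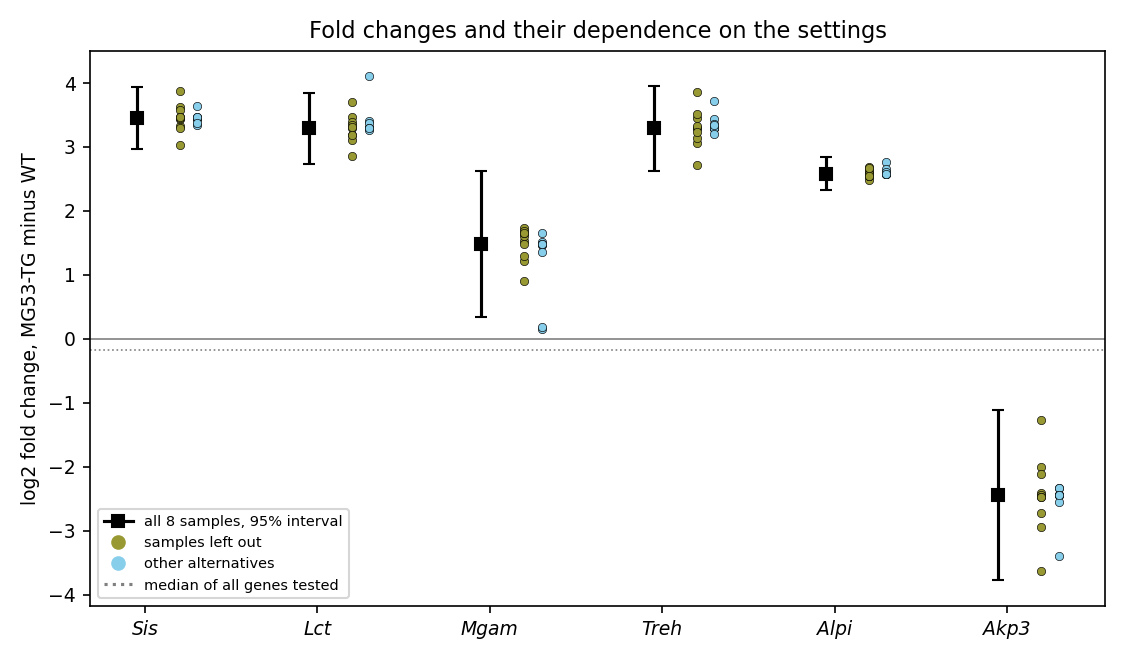
Log2 fold change of each member with its 95% interval (black squares), beside the values with samples left out (olive) and under the other alternatives (light blue), with the median of all genes tested as a dotted line at -0.17. Mgam reaches down to 0.15, and the other members keep their direction throughout.

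The genes that act after the disaccharidases rose as a group. Of 11 genes for monosaccharide uptake and its first metabolic steps, all 10 tested were higher in MG53-TG, as were 15.6% of all genes tested. The median log2 fold change of these 10 was 2.35, against -0.17 over all genes tested. Slc5a1, the sodium-coupled glucose and galactose transporter of the brush border, went from 70.4 ± 2.72 to 458 ± 14.7 FPKM (SD, n = 4 each). Atp1b1, a subunit of the sodium pump, rose from 367 to 738 FPKM. Slc2a2, the basolateral glucose transporter, went from 3.25 ± 0.323 to 54.9 ± 15.2 FPKM and was also among the 3 genes whose levels tracked those of Lct most closely, with r = 0.998 over the 8 samples. Slc5a4a was below the filter of 0.5 FPKM.

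Glycosidases that are related to the members but act inside cells did not move in that way. Of 5 tested, 2 were higher and 1 lower, with a median log2 fold change of -0.03. Among all genes tested, 15.6% were higher and 28.8% lower. Glb1, the lysosomal beta-galactosidase, rose from 42.6 to 60.4 FPKM and Ganab, a glucosidase of the endoplasmic reticulum, fell from 59.4 to 42.6 FPKM. Gaa, the lysosomal acid alpha-glucosidase, was at 14.6 and 12.9 FPKM (limma adjusted p = 0.343).

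Among 7 other phosphatase and phosphate transport genes tested, 4 were higher and 2 lower. Enpp3, an ectonucleotide pyrophosphatase, rose from 0.0662 ± 0.0508 to 11.0 ± 4.64 FPKM (SD, n = 4 each). Its relative Enpp1 fell from 3.06 to 0.803 FPKM. The phosphatase Phospho1 rose from 11.1 to 33.6 FPKM, the phosphate transporter Slc20a1 rose from 17.5 to 40.9 FPKM and its relative Slc20a2 fell from 10.2 to 7.07 FPKM. The machinery that makes the GPI anchor, on which Alpi and Akp3 depend, was measured by 24 genes, of which 2 were higher and 8 lower, with a median of -0.05. Over all genes tested 15.6% were higher and 28.8% lower, so the lower share was near that background. Its most abundant genes were Pigs, which fell from 30.7 to 23.0 FPKM, Pgap1, from 34.1 to 15.8 FPKM, and Pigt, from 27.5 to 20.5 FPKM, while Dpm3 was at 24.4 and 21.2 FPKM (adjusted p = 0.141). With median-of-ratios scaling 5 genes of this list were higher and 6 lower, and Pigt did not pass (-0.23, adjusted p = 0.0677).

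The regulators known for the promoters of these genes, which are transcription factors and the histone deacetylase Hdac1, did not share a direction. Over all genes tested 15.6% were higher and 28.8% lower. Of 15 regulators tested, 3 were higher and 8 lower, with a median log2 fold change of -0.44. Hnf4a was the most abundant and fell from 148 ± 7.88 to 109 ± 8.15 FPKM (SD, n = 4 each), whereas its paralog Hnf4g rose from 15.5 ± 0.928 to 97.6 ± 28.6 FPKM. Cdx2 fell from 82.2 to 55.2 FPKM and Cdx1 from 47.5 to 33.5 FPKM. The other increases were of Gata6, from 20.0 to 31.0 FPKM, and Thra, from 17.4 to 30.8 FPKM. Gata4 did not pass (0.16, adjusted p = 0.234). Under median-of-ratios scaling the median of all genes moved from -0.17 to -0.01 and that of this list to -0.25, with 5 genes higher and 5 lower. Under that scaling Cdx1 (-0.31, adjusted p = 0.0703) was among 3 genes that no longer passed, while Gata4 (0.35, adjusted p = 0.0268) and Hdac1 (0.40, adjusted p = 0.0486) passed as higher.

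**Figure D5:**
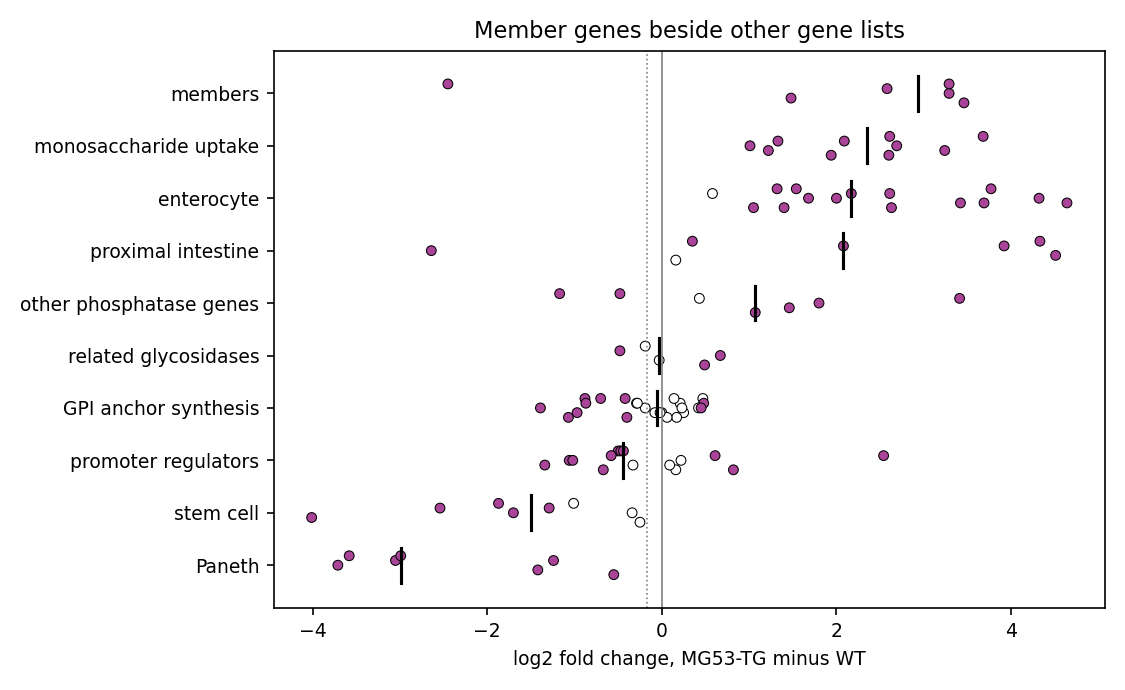
Log2 fold change of each tested gene by list, filled where the limma adjusted p is at most 0.05, with a bar at the median of the list and a dotted line at the median of all genes, -0.17. The members have a median of 2.93, monosaccharide uptake genes 2.35 and enterocyte markers 2.17, while the GPI anchor list centres near -0.05.

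Markers of cell types moved along with the members. As a background for the counts below, 15.6% of all genes tested were higher and 28.8% lower. All 15 enterocyte markers were tested and 14 were higher in MG53-TG, with a summed level of 769 to 869 FPKM in WT and 5049 to 5416 FPKM in MG53-TG. The exception was Dpp4, at 20.8 and 33.6 FPKM (limma adjusted p = 0.0987). Of 8 stem cell markers 5 were lower, and their sum was 368 to 523 FPKM in WT and 187, 201, 64.1 and 43.8 FPKM in MG53-TG samples 1 to 4. MG53-TG samples 3 and 4, with the lowest sums of stem cell markers, were also those with the highest Sis, Lct and Treh and the lowest Akp3. All 7 Paneth cell markers tested were lower, or 6 with median-of-ratios scaling, with sums of 1231 to 1650 and 262 to 460 FPKM, and 6 of 8 goblet cell markers were lower, with sums of 781 to 894 and 214 to 559 FPKM. Of 7 enteroendocrine markers tested 3 were higher, and no tuft cell marker passed the filter. In bulk RNA, more cells of a type and more RNA per cell cannot be told apart, and the part of cell composition in the members' changes was not tested.

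Markers of intestinal region and age were mixed. These lists are short, and 15.6% of all genes tested were higher and 28.8% lower. Of 7 proximal genes 5 were higher, or 6 with median-of-ratios scaling. Fabp1 rose from 256 to 5814 FPKM, Apoa4 from 39.4 to 838 FPKM and Creb3l3 from 1.95 to 44.4 FPKM. Slc40a1 rose from 8.67 to 41.4 FPKM and Onecut2 from 7.05 to 9.25 FPKM. Only Cybrd1, the duodenal ferric reductase, was lower, as Akp3 was. It fell from 66.1 ± 6.96 to 9.90 ± 2.42 FPKM (SD, n = 4 each). Of 5 distal genes tested 3 were higher and 1, Slc10a2, was lower, at 0.845 and 0.188 FPKM. With median-of-ratios scaling Slc10a2 was not tested and the other 4 were higher. Otc, taken as a gene of the adult type, rose from 11.6 to 48.2 FPKM, while of 4 genes of the suckling type Fcgrt rose from 0.840 to 5.14 FPKM, Ass1 fell from 5.98 to 2.27 FPKM and the other two did not pass. The markers of bone and connective tissue, where Alpl is abundant, summed to 1.31 to 6.35 FPKM in MG53-TG and 2.24 to 4.05 FPKM in WT, with Pdgfra, Acta2, Bglap and Sp7 unlisted. Col1a2 and Col3a1 were at 0 in WT and averaged 1.24 and 1.26 FPKM in MG53-TG samples 2 to 4, with no entry in sample 1, which counted as 0 in these sums. Immune markers summed to at most 2.33 FPKM in any sample, and none of 5 endothelial markers was listed.

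By Pearson correlation of log2(FPKM + 1) over the 8 samples, the protein-coding genes most like Sis were Smim24, Gna11 and Crot, those most like Treh were Iqgap2, Sult1b1 and Bco2, and those most like Alpi were Igf2bp3, Gstt1 and Fabp1. Besides Slc2a2, Lct was tracked by Btnl2 and Cd302. The closest to Akp3 were Pola1, Pelp1 and Dis3. Between 524 and 755 of 10260 genes exceeded r = 0.95 with each of these 5 members. For Mgam, whose closest genes were Inpp5a, Atp6v1d and Snx19, only 9 genes did. The part of the difference between genotypes in these counts was not tested.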

How the data were processed

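RNA sequencing of 4 WT and 4 MG53-TG organoid samples was analysed. Per the study's methods and the submitters' processing notes, reads were trimmed with Cutadapt 1.9.1 and mapped to mm10 with HISAT2 2.0.1, and HTSeq 0.6.1 and DESeq2 are also named. The authors deposited FPKM values per transcript event (starts, ends, skipped exons, retained introns), made with a tool not given in the sources used here. Values down to 1e-06 are estimates, so whole reads could not be recovered, depth is unknown and no count test was run.

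Events were joined to GENCODE M21 genes by the file's identifier and a shared exon boundary (89.2% of 128369 events), by the identifier alone (3.59%) or by boundaries shared with a different gene (5.55%). A gene was the sum of its starts, or of its ends where that mean was higher (used for Sis and Treh). An absent entry counted as 0, or as missing if the remaining samples of the genotype reached a median of 0.5 FPKM. Genes averaging 0.5 FPKM or more entered limma 3.58.1 (trend, R 4.3.3) as log2(FPKM + 1) (Benjamini-Hochberg, threshold 0.05). Ratios and shares used two-sided exact permutation tests (scipy 1.17.1). The fit was tested on simulated data. The alternatives were the pseudocount, filter, scaling, replicate block, sample weights, event choice, absent entries and left-out samples. List examples were the genes with the highest mean, and other genes were named where a result turned on them, after their values were seen. The members and lists were chosen with earlier results of these data known. Some genes of the lists enter the counts and are not reported singly here.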

Additional observations from a re-analysis of the deposited data

Results flagged for a closer look

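Mgam in WT sample 3, at 8.50 FPKM, stood apart from the other WT samples, which were at 44.2 to 46.5 FPKM. The gap to its nearest neighbour took up 0.940 of the range of the group. Akp3 in WT sample 2 began only at its main start, which held 100% of the start FPKM against 80.3% to 83.3% in the other WT samples. Chance alone marks about 1 in 20 groups in this way, or 0.900 of the 18 groups of 4 samples examined, and 2 were marked.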

How the results depend on the processing

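Sis, Lct, Treh, Alpi and Akp3 kept their direction and their side of the threshold under every alternative that gave a value, including each sample left out and each MG53-TG pair alone. Leaving out single samples gave log2 fold changes of 3.30 to 3.63 for Sis, 3.11 to 3.47 for Lct, 3.06 to 3.51 for Treh, 2.54 to 2.67 for Alpi and -2.95 to -2.0 for Akp3. Mgam kept its direction but lost its call with the highest single event (0.15, adjusted p = 0.386), the highest event in each sample (0.19, exact p = 0.0571), no filter (1.48, adjusted p = 0.0609), sample weights (1.35, adjusted p = 0.0829), MG53-TG samples 1 and 2 alone (1.22, adjusted p = 0.212) and samples 3 and 4 alone (1.73, adjusted p = 0.0755). With single samples left out Mgam ranged from 0.91 to 1.68, and limma adjusted p-values of 0.0629, 0.0797 and 0.0973 missed the threshold when MG53-TG sample 1, 3 or 4 was omitted. Its end events alone were too low to be tested. With a pseudocount of 0.1 the ratio of Sis to Lct turned to -0.64, of Sis to Treh to -0.25 and of Lct to Treh to 0.39. The ratio of Lct to Treh ranged from -0.13 to 0.12 with samples left out, and the change in the main start of Akp3 from -2.11 to 7.76 percentage points. The cause of these changes was not tested beyond the construction of each alternative.

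Median-of-ratios scaling and quantile normalization moved the share of higher calls among all calls from 35.1% to 50.3% and 44.6%, and no member changed its call. The labels do not say whether same-numbered samples were paired. Deviations of same-numbered samples from the mean of their genotype correlated at -0.0598 to 0.0973. The mean was 0.0311, against -0.0103 for other pairs, which does not settle whether they were paired. With the replicate block 4432 genes were called in place of 4886, with 4238 in common, and the members' log2 fold changes remained 3.46 (Sis), 3.29 (Lct), 1.48 (Mgam), 3.29 (Treh), 2.58 (Alpi) and -2.45 (Akp3), with limma adjusted p of 3.05e-04, 7.20e-04, 0.0409, 8.91e-04, 1.63e-04 and 0.0130. Since depth is unknown, levels near 0, as for Akp3 in MG53-TG samples 3 and 4, carry no interval for counting error.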
